A study of Mus musculus with 36 samples.

Results

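The ion channel genes described here are those whose symbols begin with Kcn (potassium channels), Cacn (voltage-gated calcium channels), Scn followed by a digit (sodium channels), Trpa, Trpc, Trpm or Trpv followed by a digit (transient receptor potential channels), Gabr (GABA-A receptors, chloride channels gated by the transmitter GABA), Clcn (chloride channels and transporters), Ryr (ryanodine receptors) or Itpr followed by a digit (inositol trisphosphate receptors). They were chosen by symbol alone, from peaks of any annotation. Of the 9822 genes and 13958 peaks in the authors' 3 deposited tables, 63 genes with 91 peaks met this rule: 41 peaks at 35 genes for H3K9ac, 47 peaks at 32 genes for H3K9me3 and 3 peaks at 3 genes for H3K4me3. Of these symbols, 5 name no channel subunit: the antisense or opposite-strand RNA genes Kcnab3os, Kcnd3os, Itpr3os and Kcnq1ot1, and Trpc4ap, a protein associated with a TRP channel. A peak is assigned to a gene as the authors annotated it, so a peak described as a gene's own may lie far from it.

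The cells were primary aortic smooth muscle cells of C57BL/6N mice, called wild type, and of mice lacking CSE (cystathionine gamma-lyase, encoded by Cth, which makes hydrogen sulfide) in the whole body. Both genotypes received 1 µM Ang II (angiotensin II, a vasoconstrictor peptide) for 24 h, so there is no group without it. Chromatin immunoprecipitation with sequencing gave 3 libraries per genotype for each of 3 histone marks, each with 3 input libraries, 36 samples in 12 groups of 3. The labels call the 3 libraries of a group separate samples without saying that they came from separate animals, so the authors' p-values measure the spread between samples, which may be technical. The knockout is global, so the cells came from animals lacking the enzyme in every tissue, and the labels do not say how many cultures or passages lay behind the cells.

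Ion channels set the membrane potential and the cytosolic calcium of arterial smooth muscle, and thereby its tone. Voltage-gated L-type calcium channels and TRP channels admit calcium, inositol trisphosphate and ryanodine receptors release it from the sarcoplasmic reticulum, and potassium channels hyperpolarise the membrane and close the voltage-gated entry route. Angiotensin II acts through a receptor coupled to the production of inositol trisphosphate. H3K9ac and H3K4me3 are marks of active promoters, and H3K9me3 is a mark of heterochromatin, in which genes of other lineages are often kept silent.

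The promoters of 6 channel genes that carried peaks of interest show how differently these start sites are built. Each line below gives the 250 bases before a RefSeq start site in GRCm38.p6, read 5′ to 3′ on the gene's own strand, with every CpG dinucleotide in capitals. Kcnn4, Kcnj2 and Cacna1c are shown for H3K9ac, as the channel genes with the largest higher fold and with strong lower promoter peaks in smooth muscle. Kcns3, Gabrg3 and Cacna2d3 are shown for H3K9me3, as the promoters with the largest higher folds. The Kcnn4 stretch is chr7:24370013-24370262 on the plus strand, that of Kcnj2 chr11:111065914-111066163 on the plus strand, and that of Cacna1c chr6:119108496-119108745 on the minus strand. The Kcns3 stretch is chr12:11150374-11150623, that of Gabrg3 chr7:57387216-57387465 and that of Cacna2d3 chr14:29721865-29722114, all on the minus strand.
Kcnn4: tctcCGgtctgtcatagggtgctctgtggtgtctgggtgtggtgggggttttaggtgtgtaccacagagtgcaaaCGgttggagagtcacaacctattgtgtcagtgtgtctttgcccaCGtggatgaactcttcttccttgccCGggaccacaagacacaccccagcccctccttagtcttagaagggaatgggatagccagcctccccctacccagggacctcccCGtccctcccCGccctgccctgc
Kcnj2: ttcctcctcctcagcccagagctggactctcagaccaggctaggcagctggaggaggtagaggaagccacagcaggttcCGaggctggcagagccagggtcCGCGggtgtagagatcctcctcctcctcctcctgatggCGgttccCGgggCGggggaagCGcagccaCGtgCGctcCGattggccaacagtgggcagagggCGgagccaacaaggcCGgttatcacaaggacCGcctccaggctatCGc
Cacna1c: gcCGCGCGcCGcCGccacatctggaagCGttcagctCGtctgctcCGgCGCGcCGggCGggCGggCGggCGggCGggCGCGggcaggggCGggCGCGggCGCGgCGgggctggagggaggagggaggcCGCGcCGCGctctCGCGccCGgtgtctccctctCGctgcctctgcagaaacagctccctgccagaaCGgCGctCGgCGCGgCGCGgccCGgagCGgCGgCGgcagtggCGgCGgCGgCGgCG
Kcns3: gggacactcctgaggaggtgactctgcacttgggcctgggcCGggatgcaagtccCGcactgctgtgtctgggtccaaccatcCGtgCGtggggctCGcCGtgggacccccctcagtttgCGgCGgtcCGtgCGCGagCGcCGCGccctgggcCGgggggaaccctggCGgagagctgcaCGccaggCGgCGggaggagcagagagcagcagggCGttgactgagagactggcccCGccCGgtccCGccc
Gabrg3: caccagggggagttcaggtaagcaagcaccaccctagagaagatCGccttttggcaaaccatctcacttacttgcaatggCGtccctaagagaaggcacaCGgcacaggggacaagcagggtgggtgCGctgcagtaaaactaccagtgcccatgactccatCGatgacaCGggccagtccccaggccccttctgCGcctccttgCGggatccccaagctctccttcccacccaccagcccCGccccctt
Cacna2d3: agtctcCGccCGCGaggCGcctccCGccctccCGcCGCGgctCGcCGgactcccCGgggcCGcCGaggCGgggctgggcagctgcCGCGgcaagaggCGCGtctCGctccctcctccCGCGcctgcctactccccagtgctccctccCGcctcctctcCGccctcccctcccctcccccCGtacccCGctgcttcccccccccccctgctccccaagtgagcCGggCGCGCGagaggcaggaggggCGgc

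These stretches held 6 CpGs at Kcnn4, 14 at Kcnj2, 48 at Cacna1c, 23 at Kcns3, 9 at Gabrg3 and 30 at Cacna2d3, against a median of 6 over the same stretch of 32851 promoters in the RefSeq table. The G+C content was 58.8% at Kcnn4 and 82.8% at Cacna1c, against a median of 52.4% over all promoters. Of the 6 peaks, those of Kcnj2, Cacna1c, Kcns3, Gabrg3 and Cacna2d3 covered the whole stretch, if peak and sequence positions are on the same build, and the Kcnn4 peak began inside it, at position 24370107. The letters GGGCGG, searched on both strands, occurred in all 6 stretches and in 32.7% of all promoters. Among promoters of all genes under a listed peak the share was 50.8% for higher H3K9ac, 56.8% for lower H3K9ac and 58.4% for higher H3K9me3. Among channel promoters of those groups GGGCGG occurred in 4 of 4, 5 of 7 and 4 of 4. TATAAA, searched on both strands, occurred in none of the 6 and in 12.4% of all promoters. The CArG box, the sequence bound by serum response factor in smooth muscle genes, was searched by its consensus on both strands, occurred in none of the 6 and was found in 1.47% of all promoters. Over all channel promoters whose peak overlapped these 250 bases or the 50 after the start site, the median number of CpGs was 12.5 in 4 promoters with a higher H3K9ac peak, 14 in 7 with a lower H3K9ac peak and 16 in 4 (of 3 genes) with a higher H3K9me3 peak. Peaks of all genes gave medians of 9 for higher H3K9ac, 12 for lower H3K9ac and 18 for higher H3K9me3. The channel promoters within each group thus ranged widely, from 1 CpG at Kcna7 to 48 at Cacna1c among lower H3K9ac promoters.

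The deposited tables compare knockout with wild type and hold no value per sample, so no spread between replicates could be computed and the depth of the libraries is unknown. The H3K9ac and H3K9me3 tables list only peaks selected by the authors at an unadjusted p under 0.05, and none with a p under 0.0001, so a channel gene with a smaller p would not be seen here. "Higher" and "lower" below mean the listed direction in the knockout, and only peaks with a false discovery rate (FDR) under 0.05 are said to have risen or fallen. A level is the authors' log2 mean normalised reads of a genotype at a peak, and a difference is knockout minus wild type on that log2 scale; pairs of levels joined by "against" give wild type first. Cth had no listed peak. Of 17 smooth muscle marker genes, 11, or 64.7%, had H3K9ac peaks, against 18.1% of all protein-coding genes. Of their 23 peaks 21 were lower, or 91.3%, against 77.2% of all listed peaks. H3K9ac peaks were listed at 2 of 10 leukocyte markers (Cd14 and Aif1, 3 higher peaks) and 3 of 19 neuron markers (3 lower). They were also listed at 2 of 10 endothelial markers (1 higher, 1 lower) and 3 of 8 fibroblast markers (1 higher, 3 lower). The shares of these lists ran from 15.8% (neurons) to 37.5% (fibroblasts), against 18.1% of all protein-coding genes. A part of other cell types in the channel peaks was not tested.

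At the ion channel genes most listed H3K9ac peaks were lower in the knockout, as in the table as a whole. Of the 41 peaks 30 were lower and 11 higher, or 73.2% lower, against 77.2% of all 8115 listed peaks. The median lower channel peak differed by -1.18 and the median higher one by 1.10, against -1.13 and 1.32 over all listed peaks. An FDR under 0.05 was reached by 7 of the 41 peaks, or 17.1%, against 16.6% of all listed peaks. Of these 7, acetylation rose at Kcnn4 and fell at Cacnb3, Kcnq1ot1, Kcnk2, Itpr1, Kcne4 and Cacna1h. Both the share of lower peaks and the share past the FDR thus lay near those of the whole table.

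**Figure D1:**
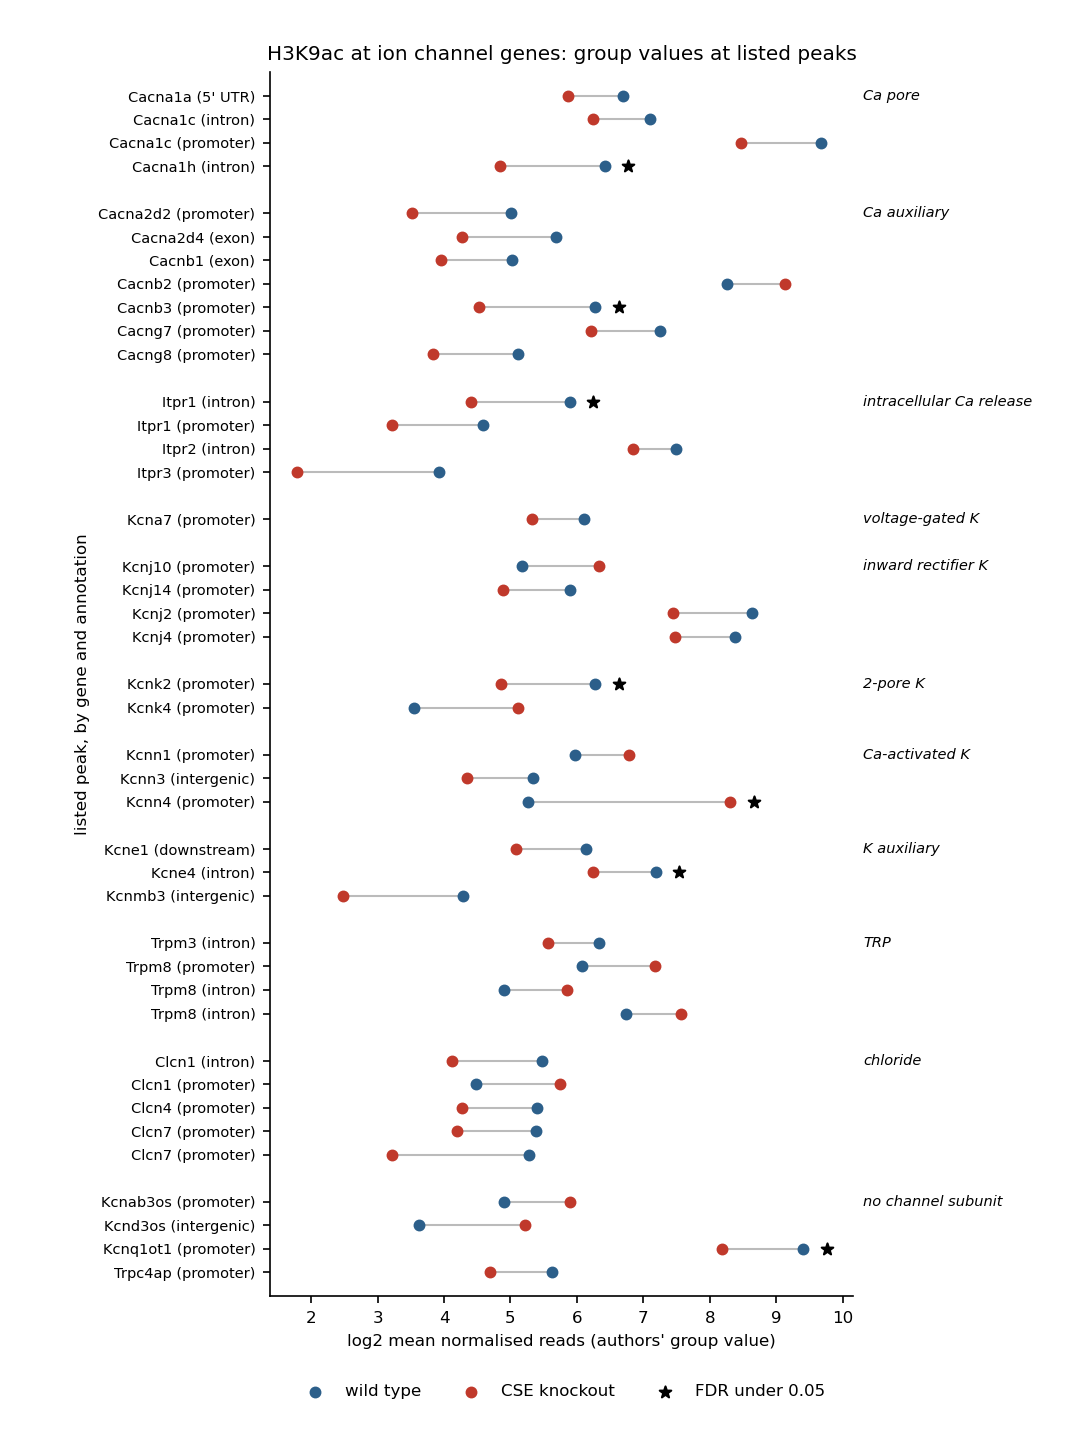
H3K9ac at each of the 41 listed peaks of ion channel genes: the authors' log2 mean normalised reads (horizontal axis) in wild-type (blue) and CSE knockout (red) cells, grouped by the role of the gene product, with a star at an FDR under 0.05. Calcium channel and calcium release genes lie to the left in the knockout except Cacnb2, and the widest gap is that of Kcnn4, from 5.26 to 8.31.

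Calcium channels of the plasma membrane gave 11 H3K9ac peaks at 10 of 26 genes, 10 of them lower. Among the pore-forming subunits all 4 peaks were lower. Cacna1c, the L-type pore that carries most depolarisation-driven calcium entry in arterial muscle, had a strong promoter peak (chr6:119106897-119109428) at a log2 level of 9.67 in wild type and 8.47 in knockout, a 2.30-fold lower mean (FDR 0.214, authors' deposited table). A second Cacna1c peak in an intron, 314 kb away, was also lower, with levels of 7.10 and 6.25 (FDR 0.122, authors' deposited table). Both Cacna1c peaks are therefore listed by unadjusted p only.

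Cacna1h, a T-type calcium channel that opens at more negative potentials, fell by 1.58 at an intron peak (chr17:25405081-25405971), from 6.42 in wild type to 4.84 in knockout (FDR 0.049, authors' deposited table). Cacna1a, the P/Q-type pore best known from nerve terminals, was lower at a peak annotated to its 5′ UTR, with levels of 6.69 in wild type and 5.87 in knockout (FDR 0.224, authors' deposited table). The Cacna1h FDR lies just inside the threshold.

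The auxiliary subunits, which traffic the pore to the membrane and shape its gating, gave 6 lower peaks and 1 higher. Acetylation at the promoter of Cacnb3, a β subunit of L-type channels in smooth muscle, fell by 1.75, from 6.28 in wild type to 4.53 in knockout (chr15:98639707-98640708, FDR 0.0113 in the authors' deposited table). The other β subunits did not share a direction. Cacnb2 was higher at its promoter (chr2:14603621-14605615), with levels of 8.26 in wild type and 9.13 in knockout, a difference of 0.87 (FDR 0.321, authors' deposited table). Cacnb1 was lower at an exon, 5.03 against 3.95 (FDR 0.31, authors' deposited table). Promoters of Cacna2d2, an α2δ subunit, and of Cacng7 and Cacng8, members of the γ subunit family, were lower, with differences of -1.49, -1.04 and -1.27 (FDR 0.318, 0.106 and 0.287, authors' deposited table). An exon peak of Cacna2d4, another α2δ subunit, was lower, 5.69 against 4.27 (FDR 0.117, authors' deposited table). Cacng7 and Cacng8 lie near each other on chromosome 7, so their peaks share a region.

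All 3 inositol trisphosphate receptors, the calcium release channels of the sarcoplasmic reticulum that angiotensin II signalling opens, had lower H3K9ac peaks, 4 of 4. Of all listed H3K9ac peaks 77.2% were lower, and 84.0% of those on chromosome 6, where the Itpr1 and Itpr2 peaks lie. A difference of this family from those shares was not tested. Itpr1 fell by 1.47 at an intron peak (chr6:108326598-108327159), from 5.89 in wild type to 4.41 in knockout (FDR 0.0358, authors' deposited table). An Itpr1 peak annotated as promoter, 130 kb away, was lower, 4.58 against 3.21 (FDR 0.306, authors' deposited table). Both peaks lie inside Itpr1, upstream of annotated start sites that are internal to the gene. Neither overlapped a RefSeq promoter stretch of Itpr1, and only the first passed the FDR. Itpr2 had the strongest of the 4 peaks, in an intron, at 7.49 in wild type and 6.85 in knockout (FDR 0.283, authors' deposited table). Itpr3 had the weakest, 1.83 kb from an annotated start site, at 3.93 and 1.78 (FDR 0.3, authors' deposited table). No ryanodine receptor had a listed H3K9ac peak.

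Potassium channels gave 13 H3K9ac peaks, 1 for each of 13 of 93 genes, 4 higher and 9 lower. Among the calcium-activated channels, which open when cytosolic calcium rises, Kcnn4 and Kcnn1 were higher and Kcnn3 was lower. Kcnn4 encodes the intermediate-conductance channel known from proliferating smooth muscle and blood cells. Its promoter peak (chr7:24370107-24372202) rose by 3.05, from 5.26 to 8.31, or from 38.3 to 317 mean normalised reads, an 8.28-fold higher mean (p 0.000206, FDR 0.0107, authors' deposited table). This was the largest difference, in either direction, among the 41 H3K9ac channel peaks. The Kcnn1 promoter was higher (5.97 against 6.79, FDR 0.321) and an intergenic Kcnn3 peak lower (5.34 against 4.34, FDR 0.295) in the authors' deposited table. These 3 genes of the same small family were thus listed in different directions, and Kcnn4 alone passed the FDR.

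Inward rectifiers, which hold the resting potential near that of potassium, gave 3 lower promoters and 1 higher. Kcnj2, the strong inward rectifier of resistance arteries, had levels of 8.63 in wild type and 7.44 in knockout (chr11:111064705-111067160, FDR 0.156, authors' deposited table). Kcnj4 had 8.38 and 7.47 (FDR 0.294), and a peak assigned to the promoter of Kcnj14 had 5.89 and 4.89 (FDR 0.154) in the authors' deposited table. The Kcnj14 peak overlapped the neighbouring gene Grwd1 in the RefSeq table. Kcnj10, best known from glia, was higher at its promoter, 5.18 against 6.33 (FDR 0.0879, authors' deposited table). None of these 4 passed the FDR.

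The 2-pore-domain channels, which carry background potassium current, split as well. Kcnk2, a stretch-sensitive channel, fell by 1.42 at a peak annotated as promoter, from 6.28 to 4.86 (chr1:189214689-189215657, FDR 0.0225 in the authors' deposited table). The annotated start site there lies well inside the RefSeq model of Kcnk2, and the peak overlapped no RefSeq promoter stretch of the gene. Kcnk4, a related stretch-sensitive channel, was higher at its promoter, 3.55 against 5.11 (FDR 0.177, authors' deposited table). Only the Kcnk2 peak passed the FDR. Auxiliary potassium subunits were lower at all 3 listed genes, where 77.2% of all listed peaks were lower. Kcne4, a small subunit that modulates voltage-gated potassium channels, fell by 0.94, from 7.19 to 6.24 (FDR 0.0404, authors' deposited table), at a peak annotated as intronic that lies 4.04 kb outside the RefSeq model of Kcne4. Kcne1, of the same family, was lower (6.14 against 5.08, FDR 0.129), as was Kcnmb3, a β subunit of large-conductance channels (4.29 against 2.48, FDR 0.193), in the authors' deposited table. Of 40 genes of voltage-gated pores and silent subunits 1 was listed for H3K9ac, or 2.50%, against 18.1% of all genes, a difference that was not tested. It was Kcna7, whose promoter was lower, 6.10 against 5.32 (FDR 0.23, authors' deposited table).

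TRP channels, cation channels gated by lipids, heat, cold or stretch, had 4 H3K9ac peaks at 2 of 22 genes. The 3 peaks assigned to Trpm8, the cold and menthol receptor, were all higher, with differences of 1.10, 0.94 and 0.83 and an FDR between 0.0911 and 0.206 in the authors' deposited table. They lay 17.8 to 26.8 kb outside the RefSeq model of Trpm8 and 1.43 to 10.3 kb from Hjurp, a centromere chaperone gene, and 2 of them were 0.343 kb apart. They are therefore close neighbours rather than 3 separate observations of Trpm8. An intron peak of Trpm3 was lower, 6.34 against 5.56 (FDR 0.278, authors' deposited table). Chloride channels gave 4 lower peaks and 1 higher at 3 of 9 genes. Clcn1, the chloride channel of skeletal muscle, had a lower intron peak (5.48 against 4.12, FDR 0.108) and, 3.44 kb away, a higher peak annotated as promoter (4.48 against 5.75, FDR 0.093) in the authors' deposited table. Both peaks, and the annotated start site of the second, lie inside Clcn1, the one channel gene with H3K9ac peaks of both directions. Clcn7, a lysosomal chloride and proton exchanger, had lower peaks at an annotated start site (5.38 against 4.20, FDR 0.184) and 2.48 kb from it (5.28 against 3.22, FDR 0.0822) in the authors' deposited table. The promoter of Clcn4, another exchanger, was lower, 5.40 against 4.27 (FDR 0.247) in the authors' deposited table.

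Of the genes that code for no channel subunit, Kcnq1ot1 carried one of the strongest peaks. It is an imprinted RNA transcribed inside Kcnq1 from the opposite strand. Its start-site peak (chr7:143294434-143297104) fell by 1.23, from 9.41 to 8.18 (FDR 0.0224, authors' deposited table). Trpc4ap was lower (5.63 against 4.69, FDR 0.239), and the opposite-strand RNA genes Kcnab3os (4.90 against 5.89, FDR 0.165) and Kcnd3os (3.62 against 5.22, FDR 0.113) were higher in the authors' deposited table. A peak cannot be divided between overlapping genes of opposite strands, so the Kcnq1ot1 peak is also a peak inside Kcnq1. No sodium channel or GABA-A receptor gene had a listed H3K9ac peak.

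By position, 25 of the 41 channel peaks, or 61.0%, were promoter peaks (annotated within 3 kb of a start site), against 44.9% of all listed H3K9ac peaks. Of these 25, 17 were lower and 8 higher, or 68.0% lower, against 79.3% of all promoter peaks. Outside promoters 13 of 16 were lower. An annotated start site can lie inside the gene, as at Kcnk2, Itpr1 and Clcn1. Channel peaks overlapped the RefSeq promoter stretches described above at 4 genes with a higher and 7 with a lower peak. Of the 41 peaks, 10 lay outside the RefSeq model of the gene they are assigned to. The channel peaks lie on chromosomes with different splits, and if each had taken its chromosome's share, 33.1 of the 41 would have been lower, against 30 seen. Another listed H3K9ac peak lay within 100 kb of 28 of the 41, and one of another gene within 100 kb of 25. Some channel peaks differed in direction from their listed neighbours. The higher Kcnn4 peak had 5 neighbours, at Smg9 and Irgc1, all lower, and the higher Kcnj10 peak 5 neighbours, all lower. The higher Clcn1 peak had 8 neighbours of other genes, all lower. Lower neighbours are common there: of all listed peaks 91.3% were lower on chromosome 7 (Kcnn4), 86.4% on chromosome 1 (Kcnj10) and 84.0% on chromosome 6 (Clcn1). The lower Kcnj14 and Kcnmb3 peaks each had 2 neighbours, all higher.

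**Figure D2:**
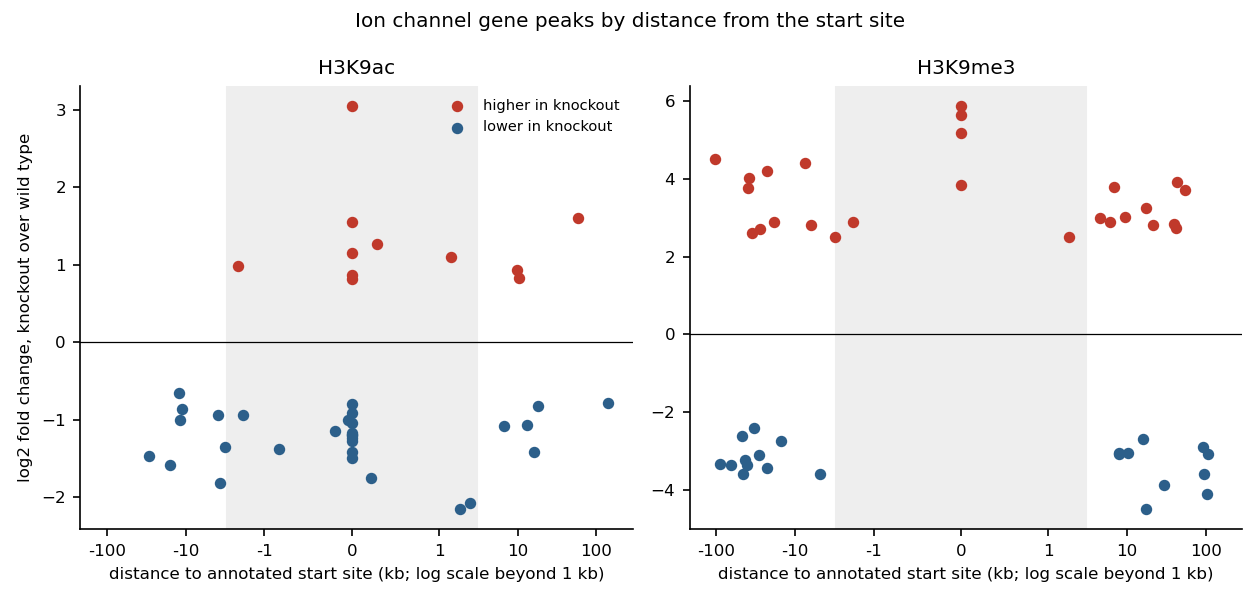
Log2 fold change, knockout over wild type (vertical axis), of each listed channel peak against its distance to the annotated start site in kb (horizontal axis, linear to 1 kb and log beyond), for H3K9ac (left) and H3K9me3 (right). Grey marks 3 kb to either side. H3K9ac points of both colours lie in the grey band, whereas all 6 H3K9me3 promoter peaks are higher (red).

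H3K9me3 at the channel genes was listed in both directions, and no peak passed the FDR. Of 47 peaks 26 were higher and 21 lower, or 55.3% higher, against 61.0% of all 5374 listed peaks. The number of channel peaks with an FDR under 0.05 was 0, as was the share of all listed H3K9me3 peaks, 0%. The authors' deposited FDR was 1 for 43 of the 47 and smallest, 0.22, at Kcns3, and 15 had an unadjusted p under 0.01. The other 3 with an FDR below 1 were Gabrg3 (0.332), Kcnab2 (0.432) and Cacna2d3 (0.442) in the authors' deposited table. Every value for this mark below is thus that of a peak listed by unadjusted p only.

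H3K9me3 levels were low. The median channel peak had 6.77 mean normalised reads, against 6.68 over all listed H3K9me3 peaks and 50.6 at the channel H3K9ac peaks. In 8 channel peaks the wild-type level, and in 7 others the knockout level, was the lowest that the table gives (-0.45 and -0.42), and the size of a difference there depends on that lowest value. The median difference was 3.13 for higher and -3.22 for lower channel peaks, against 3.21 and -3.05 over all listed peaks. Higher channel peaks were wider, with a median of 493 bases against 327 for lower ones, and all listed peaks had 432 and 361.

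**Figure D3:**
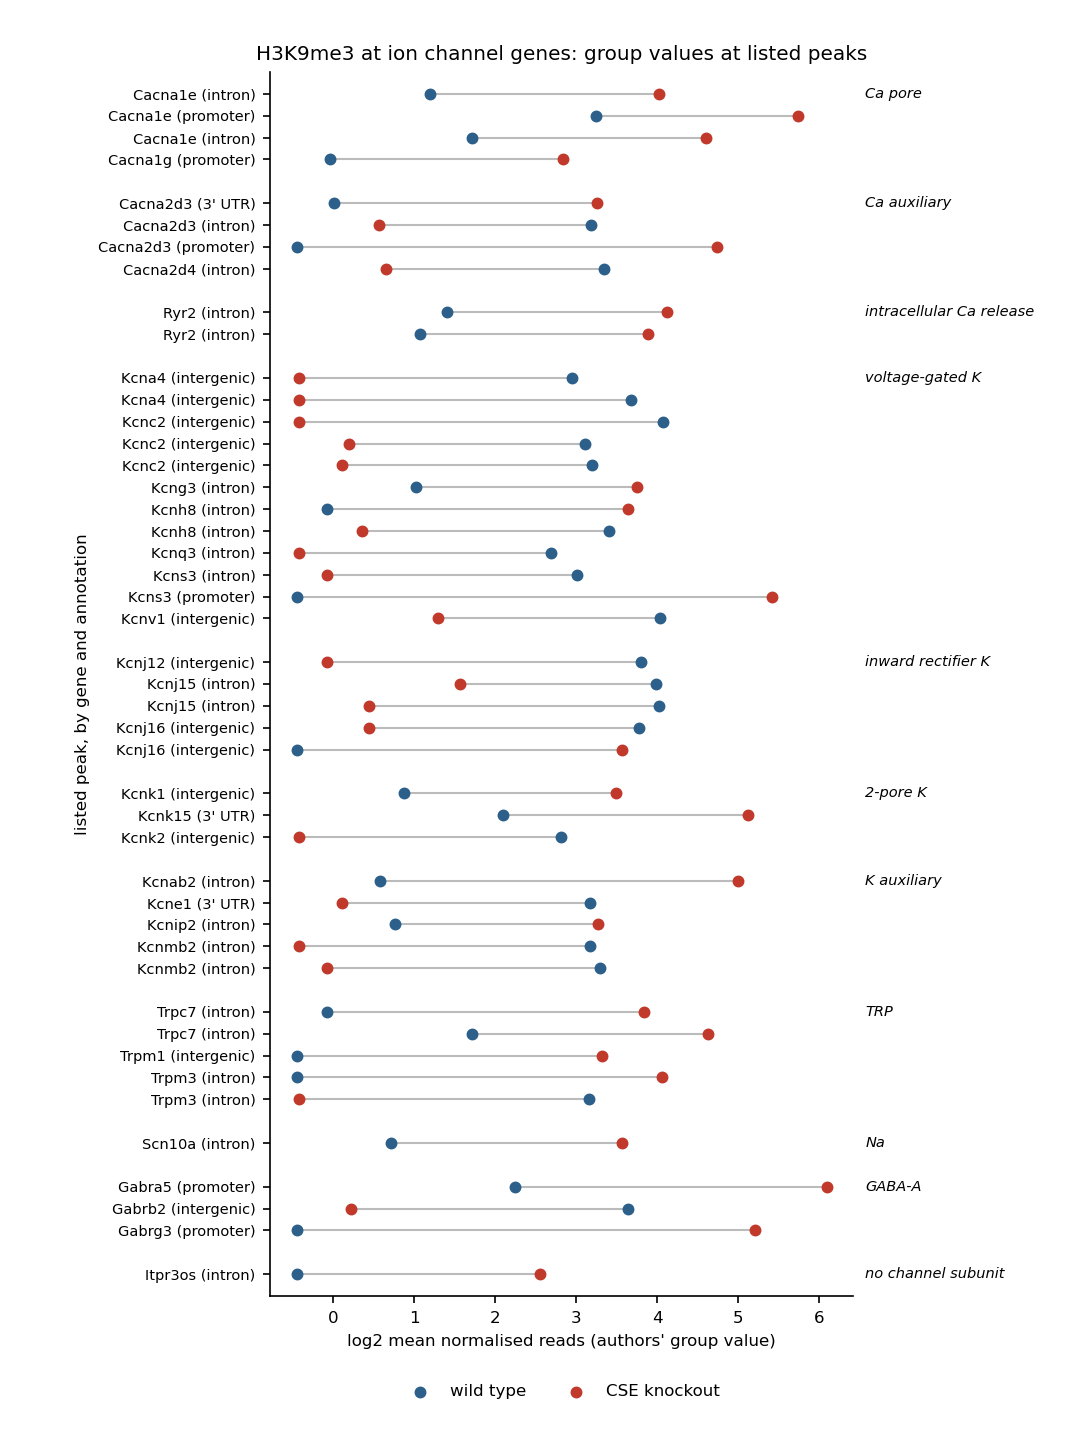
H3K9me3 at 45 of the 47 listed peaks of ion channel genes: the authors' log2 mean normalised reads (horizontal axis) in wild-type (blue) and CSE knockout (red) cells, grouped by role. Many low points share the table's lowest values (-0.45 in wild type, -0.42 in knockout), and the promoter peaks of Kcns3, Gabrg3 and Cacna2d3 reach from the lowest value to 5.42, 5.20 and 4.74.

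At peaks annotated as promoter H3K9me3 was higher at all 6 listed channel genes, against 69.8% of all 663 listed promoter peaks. Of these genes 3, Kcns3, Gabrg3 and Cacna2d3, had a peak that overlapped the RefSeq promoter stretches searched above. Kcns3, a silent subunit that modifies Kv2 potassium channels, had the largest difference, 5.87, with levels of -0.45 in wild type and 5.42 in knockout (chr12:11149939-11150999, p 0.00013 in the authors' deposited table). Gabrg3, a γ subunit of GABA-A receptors, had -0.45 and 5.20 (chr7:57386604-57387473, p 0.000319, authors' deposited table). Cacna2d3, an α2δ calcium channel subunit, had -0.45 and 4.74 (chr14:29721445-29722377, p 0.000562, authors' deposited table). These are the promoters with 23, 9 and 30 CpGs printed above. In each the wild-type mean was the table's lowest value.

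Gabra5, an α subunit of GABA-A receptors, had levels of 2.24 in wild type and 6.09 in knockout at its promoter (chr7:57508926-57510004, p 0.0195, authors' deposited table). Cacna1e, the R-type calcium pore, had 3.24 and 5.74 at 1.81 kb from an annotated start site (chr1:154473091-154474888, p 0.0313, authors' deposited table). Cacna1g, a T-type calcium pore, had -0.04 and 2.84 at 1.84 kb from an annotated start site (chr11:94428304-94428643, p 0.0415, authors' deposited table). This Cacna1g peak lay 44.4 kb from the start-site peak of H3K4me3 of the same gene. The annotated start sites of the Cacna1e and Cacna1g peaks lie inside the genes, and neither peak overlapped a RefSeq promoter stretch of its gene. Of the 6 peaks annotated as promoter, those of Cacna1e and Gabra5 had the highest wild-type levels. Gabra5 and Gabrg3 are neighbours in a GABA-A receptor cluster on chromosome 7. Outside promoters the channel peaks were 20 higher and 21 lower, and 17 of all 47 lay outside the RefSeq model of their gene. Among the 14 distal intergenic ones 4 were higher and 10 lower, where 58.1% of all listed distal intergenic peaks were higher.

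Calcium channels gave 6 higher and 2 lower H3K9me3 peaks at 4 of 26 genes, where 61.0% of all listed peaks were higher. All 4 peaks at pore genes were higher. Besides the peaks of Cacna1e and Cacna1g annotated as promoter, introns of Cacna1e had 1.20 in wild type against 4.02 in knockout, and 1.72 against 4.60 (authors' deposited table). The 3 Cacna1e peaks lay within 95.5 kb. Cacna2d3 had peaks of both directions: besides the promoter, its 3′ UTR was higher (0.01 against 3.26) and an intron lower (3.18 against 0.57) in the authors' deposited table. An intron of Cacna2d4 was lower, 3.34 against 0.66 (authors' deposited table). Among release channels, 2 introns of Ryr2, the cardiac ryanodine receptor also found in arterial muscle, were higher, 1.41 against 4.12 and 1.07 against 3.89 (p 0.0393 and 0.0422, authors' deposited table). No inositol trisphosphate receptor gene had a listed H3K9me3 peak under its own symbol, but the opposite-strand RNA Itpr3os, with -0.45 against 2.55 (authors' deposited table), had one that lies inside Itpr3.

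Potassium channels gave 9 higher and 17 lower H3K9me3 peaks at 18 of 93 genes. Voltage-gated pores and their silent partners held 13 of them, 4 higher and 9 lower. Kcnc2, a fast Kv3 channel of neurons, had 3 lower intergenic peaks on chromosome 10, at 4.07, 3.11 and 3.19 in wild type and -0.42, 0.20 and 0.11 in knockout (authors' deposited table). Kcna4, a rapidly inactivating channel, had 2 lower intergenic peaks, at 2.95 and 3.68 in wild type and at the table's lowest level of -0.42 in knockout (authors' deposited table). On chromosome 10 itself 46.0% of all listed peaks were higher. Kcns3, beside its higher promoter, had a lower intron peak 7.49 kb away (3.01 against -0.07), and Kcnh8, of the ether-à-go-go family, a higher (-0.08 against 3.64) and a lower intron (3.40 against 0.36) in the authors' deposited table. Kcnq3 (2.69 against -0.42) and the silent subunit Kcnv1 (4.03 against 1.30) were lower, and the silent subunit Kcng3 (1.02 against 3.75) higher, in the authors' deposited table. Directions thus differed among silent subunits, and within Kcns3 and Kcnh8.

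Inward rectifiers had 1 higher and 4 lower H3K9me3 peaks: introns of Kcnj15 (4.02 against 0.44, and 3.98 against 1.57) and an intergenic Kcnj12 peak (3.80 against -0.07) were lower, and Kcnj16 had a lower (3.78 against 0.44) and a higher intergenic peak (-0.45 against 3.57) in the authors' deposited table. Among 2-pore channels Kcnk1 (0.87 against 3.49) and Kcnk15 (2.10 against 5.12) were higher and an intergenic Kcnk2 peak, 43.7 kb from its start site, lower (2.81 against -0.42) in the authors' deposited table. The Kcnk15 peak overlapped Rims4 in the RefSeq table, not Kcnk15. Of the auxiliary genes, Kcnab2, a cytosolic β subunit of voltage-gated channels, had an intron peak at 0.58 in wild type and 5.00 in knockout (chr4:152462499-152463649, p 0.000535, authors' deposited table). It lay beside 13 listed peaks at Nphp4, all higher. Kcnip2, a calcium-binding subunit, was higher (0.77 against 3.27), and Kcnmb2, a β subunit of large-conductance channels, had 2 lower intron peaks (3.17 against -0.42 and 3.29 against -0.07) in the authors' deposited table.

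TRP channels gave 4 higher and 1 lower H3K9me3 peaks. Trpc7, a diacylglycerol-gated calcium channel, had 2 higher introns, -0.08 against 3.84 and 1.72 against 4.62 (authors' deposited table). Trpm1 was higher (-0.45 against 3.32) and Trpm3 had a higher (-0.45 against 4.06) and a lower intron (3.16 against -0.42) in the authors' deposited table. Scn10a, a sodium channel of sensory neurons, was the one sodium channel gene listed, higher at an intron (0.72 against 3.57, authors' deposited table). GABA-A receptor genes, best known for inhibition in the brain, had 3 higher peaks, among them the promoters of Gabra5 and Gabrg3, and 1 lower, an intergenic site of Gabrb2 (3.64 against 0.22), in the authors' deposited table. For this mark 4 of 19 GABA-A genes (21.1%) and 1 of 14 sodium channel genes (7.14%) were listed, against 5.52% of all protein-coding genes. The sodium channel share rests on 1 gene and lies near that of all genes. None of either family was listed for H3K9ac, against 18.1% of all protein-coding genes. A difference between the marks was not tested.

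**Figure D4:**
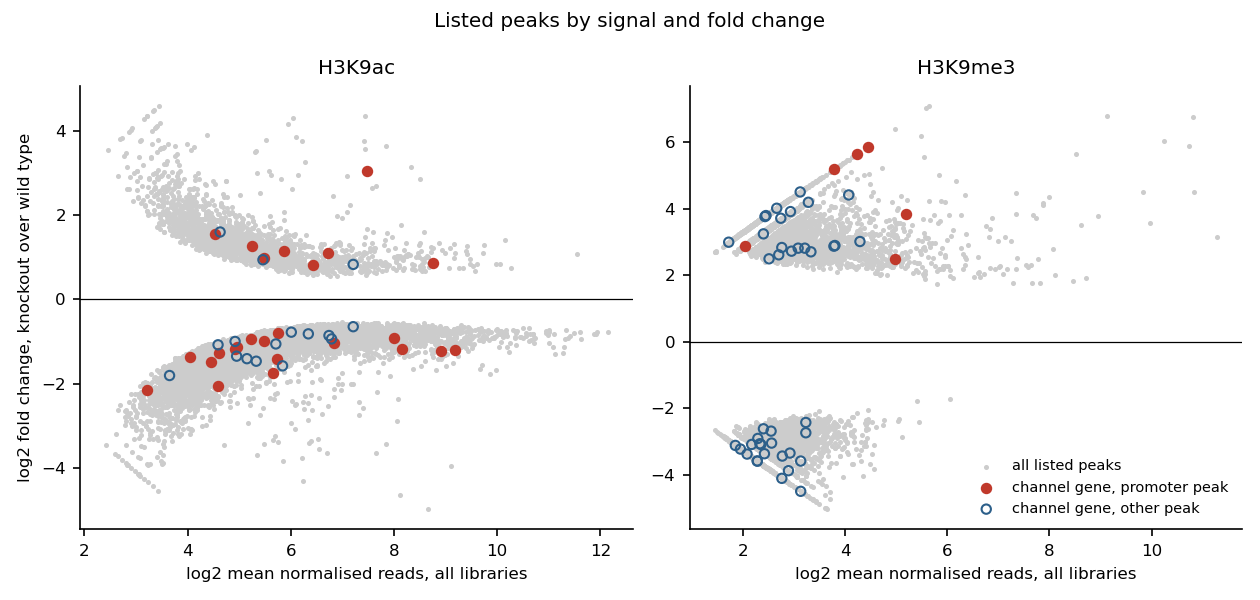
Log2 fold change, knockout over wild type (vertical axis), against the authors' log2 mean normalised reads over all libraries (horizontal axis), for H3K9ac (left) and H3K9me3 (right). Grey points are all listed peaks, filled red points promoter peaks of channel genes and open blue circles their other peaks. Kcnn4 is the red point at 3.05 in the left panel, and the diagonal edges in the right panel are peaks with 1 genotype at the table's lowest level.

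Over all 47 peaks, 27.8 would have been higher had each taken its chromosome's share, against 26 seen. Another listed H3K9me3 peak lay within 100 kb of 20 of the 47. For all but 3 of the 20 (Kcna4, Kcnab2 and Kcnj15, 1 peak each) these neighbours were peaks of the same channel gene, which had the same direction at Cacna1e, Kcnc2, Kcnj15, Kcnmb2, Ryr2 and Trpc7 and opposite directions at Kcnj16 and Kcns3. Genes with H3K9me3 peaks of both directions numbered 5: Cacna2d3, Kcnh8, Kcnj16, Kcns3 and Trpm3.

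H3K4me3 was listed at 3 channel promoters, of 469 peaks in all. They were Cacna1g (chr11:94473070-94474790), Itpr2 (chr6:146501184-146502942) and Kcnn1 (chr8:70863968-70864408). The table used here gives no level, direction or p-value for them. The Cacna1g and Itpr2 peaks lay on a start site and the Kcnn1 peak 0.710 kb from one. Itpr2 and Kcnn1 also had H3K9ac peaks, lower in an intron 90 kb away and higher at another start site 6.63 kb away, and Cacna1g had its higher H3K9me3 peak 44.4 kb away. None of these pairs overlapped.

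Both H3K9ac and H3K9me3 peaks were listed at 4 channel genes, Cacna2d4, Kcne1, Kcnk2 and Trpm3, or 11.4% of the channel genes listed for H3K9ac and 12.5% of those for H3K9me3. Over all listed symbols, which include many that are not protein-coding, the shares were 5.23% and 7.82%. Of the 192 channel genes in the RefSeq table, 16.7% had a listed H3K9ac peak and 16.1% a listed H3K9me3 peak. The overlap was therefore no larger than these rates of listing among channel genes, and it was not tested. The closest pair was at Kcne1, where a lower H3K9ac peak (6.14 against 5.08) and a lower H3K9me3 peak (3.17 against 0.11) lay 2.70 kb apart in the authors' deposited tables. At Cacna2d4 both marks were lower at sites 64.6 kb apart, and at Kcnk2 both were lower at sites 230 kb apart. At Trpm3 the lower H3K9ac peak lay 43.8 kb from the lower H3K9me3 peak and 317 kb from the higher one.

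Set against the genome, the channel genes were listed for H3K9me3 at a larger share than other genes, and for H3K9ac and H3K4me3 at a similar share. Of 192 protein-coding genes in the RefSeq table that meet the symbol rule, 32, or 16.7%, had a listed H3K9ac peak, against 18.1% of all 21900, and 22, or 11.5%, a promoter peak, against 10.8%. For H3K9me3 31, or 16.1%, had a listed peak, against 5.52%, and 6, or 3.12%, a promoter peak, against 1.15%. For H3K4me3 3, or 1.56%, had a listed peak, against 1.83%, and the same 3 a promoter peak, against 1.68%. Channel genes are long, with a median of 51 kb against 17.1 kb for all protein-coding genes, and 32.8% of them reach 100 kb, against 11.1%. Over all protein-coding genes the listed share grew with gene length for both H3K9ac and H3K9me3, so the shares were also taken by length.

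Among genes under 20 kb, 5.77% of channel genes and 3.27% of all genes had a listed H3K9me3 peak. From 20 to 100 kb the shares were 15.6% and 5.10%, and at 100 kb or longer 25.4% and 17.8%. The share was larger for channel genes in each length class, with 3, 12 and 16 channel genes behind the values. For H3K9ac the share of all genes grew with length, from 12.6% to 22.7% and 30.4%, while that of channel genes was 17.3%, 16.9% and 15.9%. Among the longest genes channel genes were therefore listed for H3K9ac at a smaller share than other genes. The length classes were chosen after the values were seen, lengths were not matched within a class, and none of these differences was tested.

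**Figure D5:**
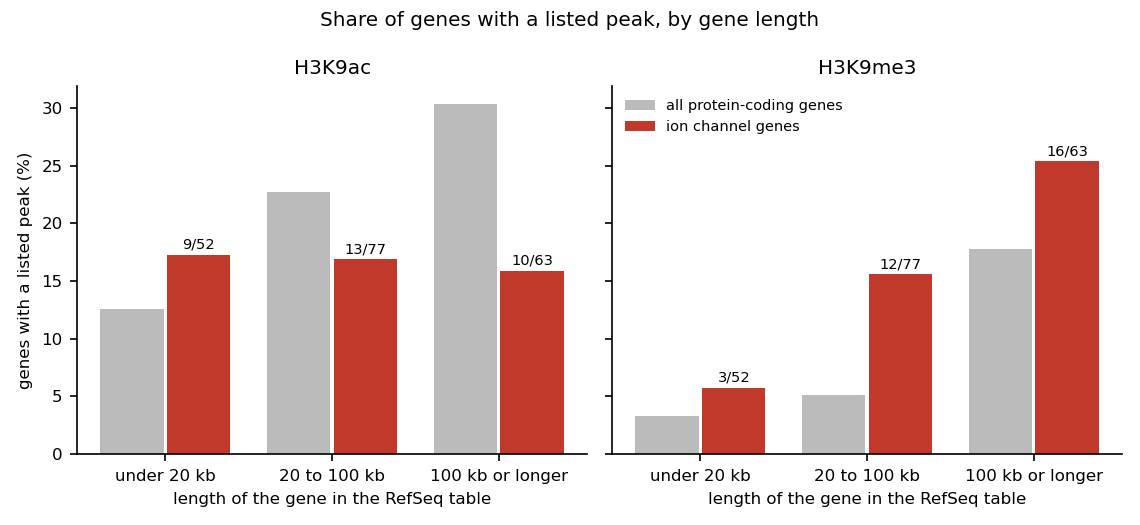
Share of protein-coding genes with a listed peak (vertical axis, percent) in 3 classes of gene length (horizontal axis), for H3K9ac (left) and H3K9me3 (right), with all genes in grey and channel genes in red. Numbers over the red bars give channel genes listed of all channel genes in the class. Red exceeds grey in every H3K9me3 class, and for H3K9ac only under 20 kb.

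From a list of 39 channel genes known from vascular smooth muscle, 12 had listed H3K9ac peaks: Cacnb2, Kcnn4 and Trpm8 higher, and Cacna1c, Cacna1h, Cacnb3, Itpr1, Itpr2, Itpr3, Kcnj2, Kcnk2 and Kcnn3 lower. These are 30.8% of the list, against 18.1% of all protein-coding genes. They held 16 H3K9ac peaks, of which 68.8% were lower, against 77.2% of all listed peaks, and 5, or 31.2%, had an FDR under 0.05, against 16.6%. Of the 5 higher peaks 3 were those of Trpm8, which lie close together and outside the RefSeq model of Trpm8. Counted by gene, 3 were higher and 9 lower. The list was drawn up with earlier results of these data known, and its differences from the table were not tested. For H3K9me3 3 were listed, Cacna1g and Ryr2 higher and Kcnk2 lower. The remaining 25 had no listed peak in any table, among them Kcnma1 and Kcnmb1 of the large-conductance potassium channel, Kcna5, Kcnj8, Trpc6 and Trpv4. A gene without a listed peak may have no peak within the authors' selection or one with a p under 0.0001, and its levels are not known here.

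Calcium-handling genes outside the symbol rule (pumps, store-operated entry, calmodulin and its kinases, mitochondrial uptake) had 17 lower and 3 higher H3K9ac peaks at 11 of 45 genes. The shares were 24.4% of genes listed and 85.0% of peaks lower, against 18.1% of all genes and 77.2% of all listed peaks. The FDR was under 0.05 at 3 of these 20, or 15.0%, against 16.6% of all listed peaks. Calm3, a calmodulin gene, fell by 1.15 (FDR 0.011), Atp2b1, a calcium pump of the plasma membrane, fell by 0.96 (FDR 0.0295), and Iqgap1, a scaffold that binds calmodulin, fell by 1.59 (FDR 0.0369) in the authors' deposited table. For H3K9me3 the list had 5 higher and 2 lower peaks at 5 genes (71.4% higher, against 61.0% of all listed peaks), none past the FDR, with 3 of the higher ones at Slc24a3, a sodium and calcium exchanger. Stim1, a calcium sensor of the sarcoplasmic reticulum, was the one gene of the list with an H3K4me3 peak.

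Other channel families (glutamate receptors, anoctamins, volume-regulated, purinergic, mitochondrial and other channels; 112 genes) had 17 lower and 11 higher H3K9ac peaks at 18 genes, and 26 higher and 12 lower H3K9me3 peaks at 15. For H3K9ac 60.7% of the list's peaks were lower, against 77.2% of all listed peaks, and 16.1% of its genes were listed, against 18.1%. For H3K9me3 68.4% of its peaks were higher, against 61.0%, and 13.4% of its genes were listed, against 5.52%. The FDR was passed by 6 of the 28 H3K9ac peaks, or 21.4%, against 16.6%, and none of the differences between the list and the tables was tested. Lrrc8d, a subunit of volume-regulated anion channels, fell by 1.74 at an exon (FDR 0.00642) and rose by 1.38 at an intron (FDR 0.00655) in the authors' deposited table. Ano3 fell by 1.16 (FDR 0.0078) and Cngb1 rose by 1.35 at an intron peak (FDR 0.0135) in the authors' deposited table. Other Cngb1 intron peaks were higher (1.06, FDR 0.279) and lower (-0.79 and -1.43, FDR 0.199 and 0.298) there. Cftr, the chloride channel mutated in cystic fibrosis, fell by 2.04 (FDR 0.0239) in the authors' deposited table. Vdac2, a pore of the outer mitochondrial membrane, rose by 3.37 from a low level of 0.79 (FDR 0.0315, authors' deposited table). A stronger Vdac2 promoter peak was lower, 6.85 against 6.20 (FDR 0.231, authors' deposited table). For H3K9me3 Grik3, a kainate receptor subunit, had 6 higher peaks, and Grik2, Asic2 and Dpp6 had 3 each. The Dpp6 promoter, of a gene for a partner of Kv4 channels, had the smallest p of the list, with levels of 0.35 in wild type and 5.42 in knockout (FDR 0.255, authors' deposited table). Grin2b, an NMDA receptor subunit, had 4 peaks, all lower.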

How the data were processed

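ChIP-seq was done for 3 marks in 3 libraries per genotype, and the 18 input libraries were not analysed here. CASAVA 1.4 and mm9 are named in the submitters' processing notes, while the aligner, the peak caller, the normalisation and the test of differences are not given in the sources used. Gene positions in the deposited tables were compared with the RefSeq table of GRCm38.p6. They overlapped for 99.7% of 4986 symbols in the H3K9ac table, for 99.6% of 2776 in the H3K9me3 table and for 100% of 432 in the H3K4me3 table. Peak coordinates, copied unchanged, were therefore read as GRCm38, and their own build was not tested.

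Per the file headers, values for H3K9ac and H3K9me3 are the authors' log2 mean normalised reads (for each genotype and over both), their log2 fold change and their p-value with its FDR. Distances to the start site and annotations are those the authors deposited. Fold changes matched the gap between both group values to within 0.01 on the log2 scale. The H3K4me3 table used here holds positions and annotation.

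Channel peaks were picked by the symbol rule, counted by direction, annotation and role, and set beside the same counts over all listed peaks. Without values per sample no test across samples was possible, so the authors' calls were counted. Neighbours are listed peaks of the same mark within 100 kb, whether of the same or of another gene unless stated. Promoter sequences came from RefSeq (GRCm38.p6). The software was Python 3.11.15, pandas 2.3.3, numpy 2.4.6, scipy 1.17.1 and matplotlib 3.10.9, and the counting functions were tested on simulated data. The members and gene lists were chosen with earlier results of these data known. Genes named are those with an FDR under 0.05, the 2 of smallest p per mark, direction and role, those listed for several marks, in both directions or with 3 or more peaks, and the listed smooth muscle channels. Genes named beyond these were picked once their values were known. As alternatives, the counts were repeated with a stricter p (under 0.01), an FDR under 0.05, promoter and other peaks apart, 1 call per gene, merged neighbours, channel subunits only, autosomes, and stronger signal or fold. Some channel genes are counted but not reported here by name.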

Additional observations from a re-analysis of the deposited data

How the results depend on the processing

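Of 45 alternative values 1 reversed and 4 moved beyond the limit set for them, all 5 for H3K9me3 or its overlap with H3K9ac, and 40 did not. Among the 40, the promoter share of H3K9me3 peaks was still 20% at a p under 0.01 and 8.51% with the start site within 1 kb, against 12.8%, and the median difference of higher H3K9me3 peaks 3.77 with 1 call per gene, against 3.13. The share of H3K9me3 peaks higher in the knockout, 55.3% over all 47 (95% exact binomial interval 40.1 to 69.8%, counting error only), was 100% of the 6 promoter peaks and 48.8% of the 41 outside promoters, the latter a turn of the majority. The cause was not tested. The median difference of higher H3K9me3 peaks was 4.52 at promoters, against 3.13 over all. With promoter peaks only, the genes listed for H3K9me3 numbered 6 in place of 32 and those listed for both H3K9ac and H3K9me3 0 in place of 4, since fewer peaks were counted; with 6 genes, a count of 0 says nothing particular about channel genes. The H3K9ac share lower in the knockout ran from 66.7% to 85.7% over its alternatives. An FDR under 0.05 left no H3K9me3 peak, and promoters held no lower H3K9me3 peak, so neither gave a value. No paired analysis was possible because the tables hold no value per sample. The depth behind each value is unknown, and the low H3K9me3 levels limit how well its differences are known. How the authors normalised can shift every H3K9ac direction and could not be varied here.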
